A study of Mus musculus with 11 samples.

Results

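The granule genes examined were Gzma, Gzmb, Gzmk and Gzmm, which encode granzymes, Prf1, which encodes perforin, and Srgn, Ctsw, Nkg7 and Lamp1, which encode other proteins of the cytotoxic granule. They were chosen by name, as 9 of the 54532 genes counted, and all 9 were among the 13129 genes with enough counts to be tested. RNA was sequenced from CD8+CD44+Ly49+CD122+ cells, called CD8+ Tregs, sorted from the spleen of wild-type mice, which the paper's methods give as C57BL/6J. The 11 libraries comprised 6 from young mice, 3 of each sex, and 5 from middle-aged mice, 2 of them male and 3 female. Per the labels, young mice were 2 to 3 months old and the older group, labelled old there and called middle-aged here after the paper, 10 to 12 months. Each library is identified below by its age, sex and replicate number, and the labels do not say whether mice were pooled. The comparison asks how the transcripts of CD8+ Tregs differ between the ages.

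Cytotoxic lymphocytes store perforin and granzymes in secretory granules and release them onto a bound target. Perforin forms pores in the target membrane, and granzymes, a family of serine proteases, pass into the target and cleave its proteins. Granzyme A and granzyme K are tryptases encoded by neighbouring genes, granzyme B cleaves after aspartate and is encoded in a separate cluster with the genes of mast cell and neutrophil proteases, and granzyme M is encoded on another chromosome. Natural killer (NK) cells use the same granule proteins as CD8+ T cells, so these transcripts do not by themselves tell the cells apart.

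Gzma (ENSMUSG00000023132, chr13:113093825-113100981 of GRCm38, minus strand) and Gzmk (ENSMUSG00000042385, chr13:113171608-113225908, minus strand) stood 70626 bases apart in the deposited coordinates. The 3 genes placed between them had 0 counts in every library, and Esm1, which lies within the span of Gzmk on the opposite strand, had at most 10. The 250 bases before the RefSeq start of each gene (GRCm38.p6, minus strand, 5′ to 3′) are given because the results turn on these neighbours, whose fold changes with age had opposite signs. Capitals mark matches, on either strand, to GGTGTGA (a T-box motif), TGTGGT (a Runx motif) and GGAAG (an Ets motif).
Gzma: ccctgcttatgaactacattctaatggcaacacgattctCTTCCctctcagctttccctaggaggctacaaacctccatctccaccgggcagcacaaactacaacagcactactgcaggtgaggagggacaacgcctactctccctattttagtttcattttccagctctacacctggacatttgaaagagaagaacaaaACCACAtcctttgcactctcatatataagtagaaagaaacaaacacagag
Gzmk: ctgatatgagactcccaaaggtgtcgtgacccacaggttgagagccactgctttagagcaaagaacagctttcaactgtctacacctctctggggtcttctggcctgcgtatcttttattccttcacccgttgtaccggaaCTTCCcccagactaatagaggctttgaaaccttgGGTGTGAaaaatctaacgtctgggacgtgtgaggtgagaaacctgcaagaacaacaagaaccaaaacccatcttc
The Gzma stretch is chr13:113100982-113101231 and held 1 Runx and 1 Ets match, which did not overlap. The Gzmk stretch is chr13:113180966-113181215, inside the longer span that the count table gives this gene, and held 1 T-box and 1 Ets match. Of 32851 RefSeq promoter stretches of the same length, 3.33% held the T-box letters, 14.05% the Runx letters and 64.1% the Ets letters. The matches are a description of these letters and were not tested for binding.

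Libraries held 6135736 (young male 1) to 24394532 (young female 2) counts. Levels are CPM (counts scaled to library size with TMM factors) unless given per kb of gene length, and a count of 0 allowed up to 0.119 to 0.543 CPM by library, a limit that covers counting error only. A pair of features set libraries apart before any age comparison. In middle-aged female 2 the summed level of 5 neutrophil markers was 1590 CPM against 0 to 83.9 CPM in the other 10 libraries. That of 8 myeloid markers was 1572 against 209 to 654 CPM, and Lyz2 made up 1058 of the 1572 CPM. Csf1r, the other defining myeloid marker, was at 58.2 CPM there and at 59.5 CPM in young male 3. Because of these sums the granule genes are also given without middle-aged female 2. The replicate numbers, whose meaning the labels do not give, also ordered several granule genes, and the 2 libraries with the fewest counts (6135736 and 8421396) were both young and numbered 1. Markers of the sorted cell (Cd3e, Cd3d, Cd8a, Cd8b1, Cd44, Il2rb, Ikzf2, Klra7 and Klra6) were detected in all 11 libraries and summed to 6118 to 9650 CPM. Single markers were less even. Il2rb, which encodes CD122, was at 552 CPM in young male 1 and 1293 CPM in young female 1, against 1956 to 2625 CPM elsewhere. Cd3d was highest in the same 2 libraries (2476 and 2923 CPM). Cd44 was lowest in young male 1 (42.3 against 98.4 to 166 CPM), and Ikzf2 in middle-aged female 2 (10.8 against 19.8 to 69.2 CPM).

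By edgeR's quasi-likelihood test with sex as a second term and Benjamini-Hochberg adjustment, none of the 9 granule genes had an adjusted p under 0.05, against 0.0229% of all genes tested. At an unadjusted p under 0.05, Gzmk was higher in middle-aged libraries (1 of 9, against 2.00% of all genes) and Gzma was lower (1 of 9, against 0.990%). DESeq2 gave both genes an adjusted p under 0.05 (0.860% of all genes passed), and so did limma voom with sample quality weights (1.05%). In simulated data 21.1% of the calls of DESeq2 were false, against 3.25% for edgeR and 3.45% for voom. These counts were a single draw from edgeR's own dispersion estimates, without differences between replicate numbers or an odd library. The rates therefore do not rank the tests on the measured libraries. The CPM of Gzmk did not overlap between the ages with all middle-aged libraries above all young ones, as for 1.01% of all genes, and no granule gene stood wholly below, as for 0.297%. Without middle-aged female 2, the middle-aged library whose Gzma level lay among the young ones, Gzma also had an adjusted p under 0.05, against 0.0224% of 13388 genes. Of the 9 fold changes 7 were positive, with a median of 0.14 on the log2 scale against 0.0028 over all genes tested. The 7 include Gzmb (0.0029) and Srgn (0.0035), which were near 0 and changed sign under other settings. The p-values measure the spread between these libraries, which the paper's legend calls biologically independent and the labels do not describe further.

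**Figure D1:**
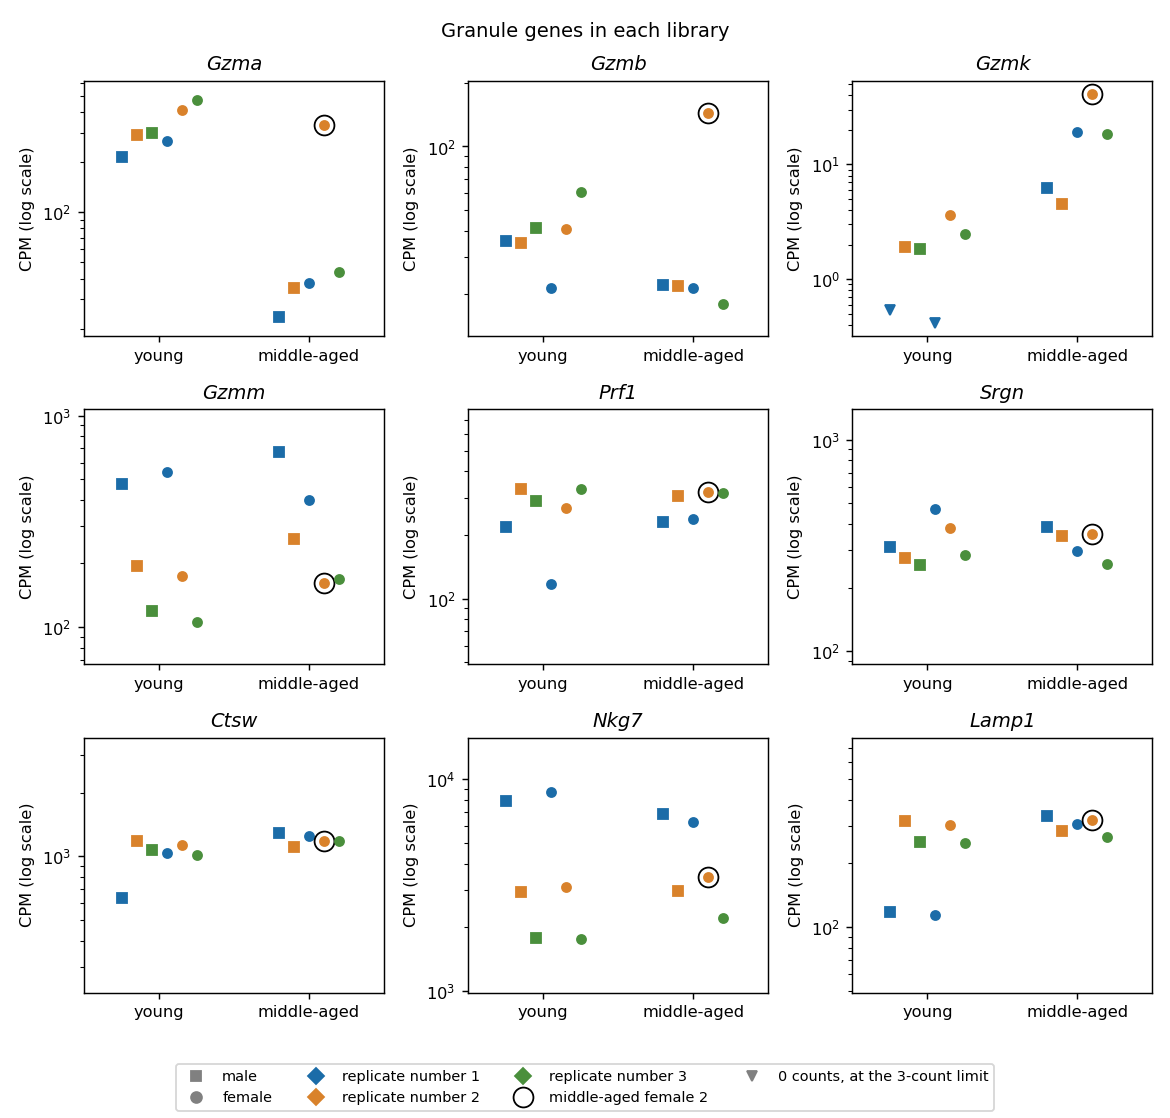
Level of the 9 granule genes in each of the 11 libraries (vertical axes: CPM, log scale), by age, with squares for males, circles for females and colours for the replicate number. Gzma is at 214.9 CPM or more in the 6 young libraries and at 43.8 CPM or less in 4 of the 5 middle-aged ones, the ringed middle-aged female 2 (334.5 CPM) being the exception.

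Gzma, by median the most abundant granzyme transcript per kb in young CD8+ Tregs, was lower in the middle-aged libraries other than middle-aged female 2. In young males its level was 214.9, 292.6 and 300.2 CPM (replicates 1 to 3), and in young females 269.7, 410.5 and 472.2 CPM. In middle-aged males it was 23.5 and 35.1 CPM, and in middle-aged females 37.8, 334.5 and 43.8 CPM. Middle-aged female 2 thus lay among the young libraries, and the remaining middle-aged libraries lay below all of them. Young libraries averaged 327 ± 95.7 CPM (SD, n = 6) and middle-aged ones 94.9 ± 134 CPM (SD, n = 5), or 35.0 ± 8.49 CPM (SD, n = 4) without middle-aged female 2. In bulk RNA, fewer cells with a transcript and less of it per cell cannot be told apart.

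The log2 fold change of Gzma, middle-aged over young, was -2.20 (SE 0.62, edgeR adjusted p = 0.558). An exact permutation test of mean log2 CPM, 2-sided, gave p = 0.0108, where the group sizes allow 0.00216 at the least. Without middle-aged female 2 the log2 fold change was -3.22 (SE 0.28, edgeR adjusted p = 0.00201), a 9.30-fold lower level. The exact permutation test then gave p = 0.00476, below which it cannot go with 4 against 6 libraries. With any other single library left out, Gzma had an edgeR adjusted p of 0.505 or more. The p-values without middle-aged female 2 thus depend on leaving out the middle-aged library whose Gzma level lay among the young ones. Age groups that do not overlap in this direction were found for 0.575% of genes without that library. Within replicate numbers 1, 2 and 3 the log2 differences were -3.01, -1.68 and -3.10. Number 3 has no middle-aged male, so its differences, here and below, set middle-aged female 3 alone against young libraries of both sexes. The age difference of Gzma was larger in males fitted alone (-3.20) than in females fitted alone (-1.46, with middle-aged female 2 included), but the interaction of age and sex was not resolved (1.73, SE 1.08, edgeR adjusted p = 1.00).

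Ncr1, which encodes an activating receptor that defines NK cells, stood below its lowest young value in 4 of the 5 middle-aged libraries. Its level was 25.1 to 120 CPM in young libraries and 1.81, 10.6, 6.25, 48.8 and 22.6 CPM in middle-aged males 1 and 2 and middle-aged females 1 to 3. Klrb1c, the other defining NK marker, overlapped between the ages, at 34.2 to 135 CPM in young and 30.2 to 95.1 CPM in middle-aged libraries. Neither was at 0 in any library. Of the 9 NK markers 3 (Ncr1, Cd244a and Tyrobp) lay below all young libraries in the same 4 middle-aged libraries as Gzma. Without middle-aged female 2, 0.575% of the 13388 genes tested lay so. Tyrobp, which encodes a signalling adaptor, was at 30.1 to 47.9 CPM in those 4, at 49.6 to 173 CPM in young libraries and at 188 CPM in middle-aged female 2. Cd244a, a receptor gene, was at 0.856 to 5.88 CPM in those 4, at 6.33 to 35.3 CPM in young libraries and at 22.8 CPM in middle-aged female 2. The 9 markers together summed to 558 to 813 CPM in young libraries, 376 to 896 CPM in the other middle-aged libraries and 809 CPM in middle-aged female 2. Klre1, the most abundant of them, was at 132 to 397 CPM in young and 203 to 589.8 CPM in middle-aged libraries. Without it, a choice made after the values were seen, the sums were 217 to 681 CPM in young and 136 to 306 CPM in the other middle-aged libraries. In middle-aged female 2 the sum was 542 CPM, with Tyrobp (188 CPM) and Fcer1g (136 CPM) its largest parts. That library also had the highest summed myeloid and neutrophil markers, and which cells these transcripts came from was not tested. The part of NK cells in the Gzma result was not tested.

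Gzmk was low or undetected in young CD8+ Tregs and higher in each middle-aged library than in any young one. Its counts in young males were 0, 41 and 38, and in young females 0, 92 and 43, which correspond to 0 to 3.66 CPM with a median of 1.87 CPM. In middle-aged males its level was 6.23 and 4.49 CPM, and in middle-aged females 19.2, 40.9 and 18.4 CPM. The highest young value lay below the lowest middle-aged value, and the 3 middle-aged females lay above the 2 middle-aged males. Young libraries averaged 1.65 ± 1.43 CPM (SD, n = 6) and middle-aged ones 17.8 ± 14.6 CPM (SD, n = 5).

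The log2 fold change of Gzmk was 2.95 (SE 0.91, edgeR adjusted p = 0.720), with p = 0.00433 by the exact permutation test. Without middle-aged female 2 the mean of the middle-aged libraries was 12.1 ± 7.80 CPM (SD, n = 4). That left a log2 fold change of 2.62 (SE 0.93, edgeR adjusted p = 1.00), with p = 0.0190 by the exact permutation test. The groups still did not overlap, as for 1.41% of genes in that direction without this library. The 2 young libraries at 0 counts were those with the fewest counts and allowed up to 0.543 CPM (young male 1) and 0.417 CPM (young female 1). Among libraries numbered 1, the middle-aged mean of 12.7 CPM was at least 26.5-fold higher than the mean of these limits. Within numbers 2 and 3 the log2 differences were 2.31 and 3.05, and in number 3 the only middle-aged library was a female. The interaction of age and sex was 1.62 (SE 1.73, edgeR adjusted p = 1.00).

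Gzmk was also highest in the library with the highest summed plasma cell, myeloid and neutrophil markers. The 5 plasma cell markers summed to 1.99 to 20.5 CPM in young libraries, 19.1 to 46.8 CPM in the other 4 middle-aged libraries and 201 CPM in middle-aged female 2. Of their defining markers, Sdc1 was at 0 in 5 libraries and highest in middle-aged female 3 (2.09 CPM), with 1.80 CPM in middle-aged female 2. Jchain was at 0 in young male 1 and young female 1 and at 159 CPM in middle-aged female 2, most of the sum of 201 CPM there. The 4 CD4 T cell markers summed to 1.39 to 30.9 CPM in young and 10.4 to 28.5 CPM in middle-aged libraries. The part of such cells in the Gzmk result was not tested.

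Gzma and Gzmk were set against each other within each library, as counts per kb of gene length. The Gzma level per kb was 210, 228, 155 and 263 times that of Gzmk in young males 2 and 3 and young females 2 and 3. In young male 1 and young female 1, where Gzmk was at 0, the ratio was at least 547 and at least 893 (against 3 counts per library). In middle-aged libraries it was 5.22 and 10.8 in males and 2.71, 11.3 and 3.29 in females. The lowest young ratio, 155, was far above the highest middle-aged one, 11.3, which belonged to middle-aged female 2. Thus the library in which the level of Gzma was like that of young libraries had a ratio among those of the middle-aged libraries.

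The mean log2 ratio was 8.29 ± 0.96 (SD, n = 6, with 2 values as bounds) in young and 2.49 ± 0.95 (SD, n = 5) in middle-aged libraries. The difference of -5.80 corresponds to a 55.7-fold lower ratio, and without middle-aged female 2 it was -6.05, or 66.3-fold lower. Both rest in part on the 2 young bounds, set at 3 counts of Gzmk in the 2 shallowest libraries. Taken as a ratio of group sums over all 11 libraries, the log2 difference was smaller, at -5.22. The pooled SD within age groups was 0.953. No test is given, because the ratio is a score built on the chosen genes. Within replicate numbers the difference was -7.54 for number 1, where the young values are bounds, -4.03 for number 2 and -6.22 for number 3.

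As a share of Gzma and Gzmk together, per kb, Gzmk made up 0 to 0.642% in young and 8.14 to 26.9% in middle-aged libraries. The exact Clopper-Pearson interval (95%, counting error only) reached at most 0.786% in a young library, for young female 2. In middle-aged libraries the lowest bound was 6.72%, for middle-aged male 2, where the share was 8.48%. The share was 16.1% in middle-aged male 1, 26.9% in middle-aged female 1, 8.14% in middle-aged female 2 and 23.3% in middle-aged female 3.

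**Figure D2:**
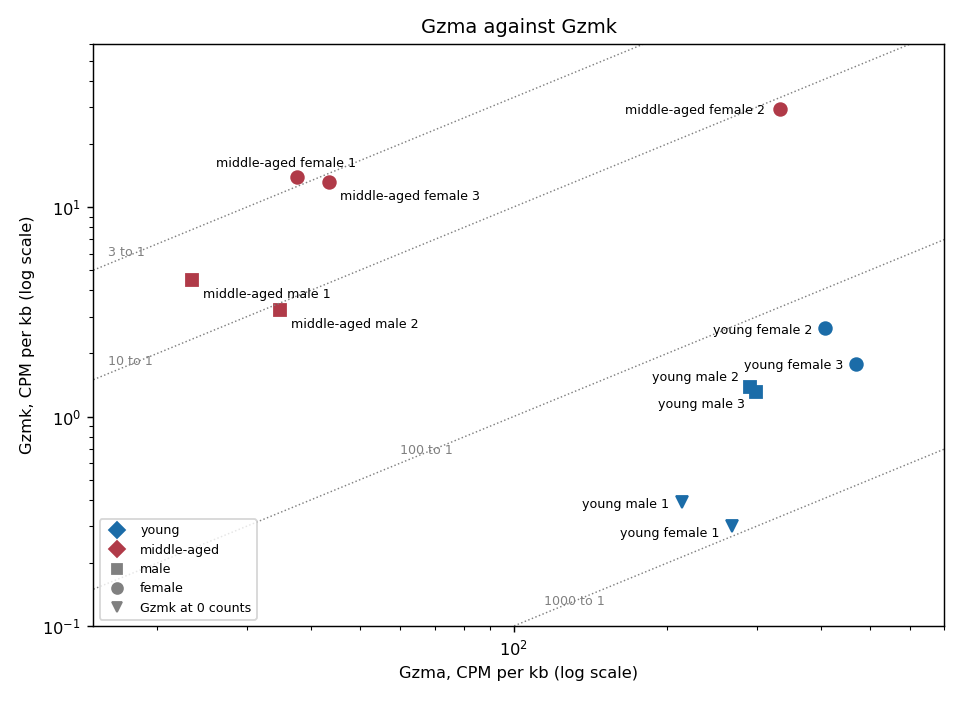
Gzma (horizontal axis) against Gzmk (vertical axis) in each library, in CPM per kb of gene length on log scales, with dotted lines of equal ratio and triangles at the limit that a count of 0 allows. Middle-aged female 2 is as far right as the young libraries in Gzma but lies near the 10 to 1 line (11.3), and the young libraries lie beyond the 100 to 1 line (155 or more).

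The granzyme transcripts of a library were further split among all granzyme genes, per kb. Gzma made up 37.1, 64.6 and 72.9% in young males 1 to 3 and 41.2, 73.1 and 79.9% in young females 1 to 3. It made up 4.66 and 15.1% in middle-aged males and 11.1, 58.1 and 23.5% in middle-aged females. The share was 61.5 ± 18.0% (SD, n = 6) in young and 22.5 ± 21.0% (SD, n = 5) in middle-aged libraries, or 13.6 ± 7.87% (SD, n = 4) without middle-aged female 2. With that library the groups overlapped, and without it they did not.

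Gzma and Gzmm held the largest shares in every library. The share of Gzmm was 12.3 to 56.5% in young libraries, where the 2 libraries numbered 1 were highest (56.1 and 56.5%), and 62.2 to 91.1% in the middle-aged libraries other than middle-aged female 2, which stood at 19.1%. Gzmk contributed at most 0.472% of the granzyme counts per kb in a young library, and between 0.894% (middle-aged male 1) and 7.13% (middle-aged female 3) in the middle-aged ones. Gzmb contributed 2.29 to 7.23% in young libraries, 3.09 to 6.81% in the other 4 middle-aged libraries and 17.4% in middle-aged female 2. Of the granzymes encoded next to Gzmb, Gzmd, Gzme, Gzmf, Gzmg and Gzmn had 0 counts in all 11 libraries and Gzmc at most 69 counts. How reads shared by such closely related copies were assigned is not given in the sources used here.

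**Figure D3:**
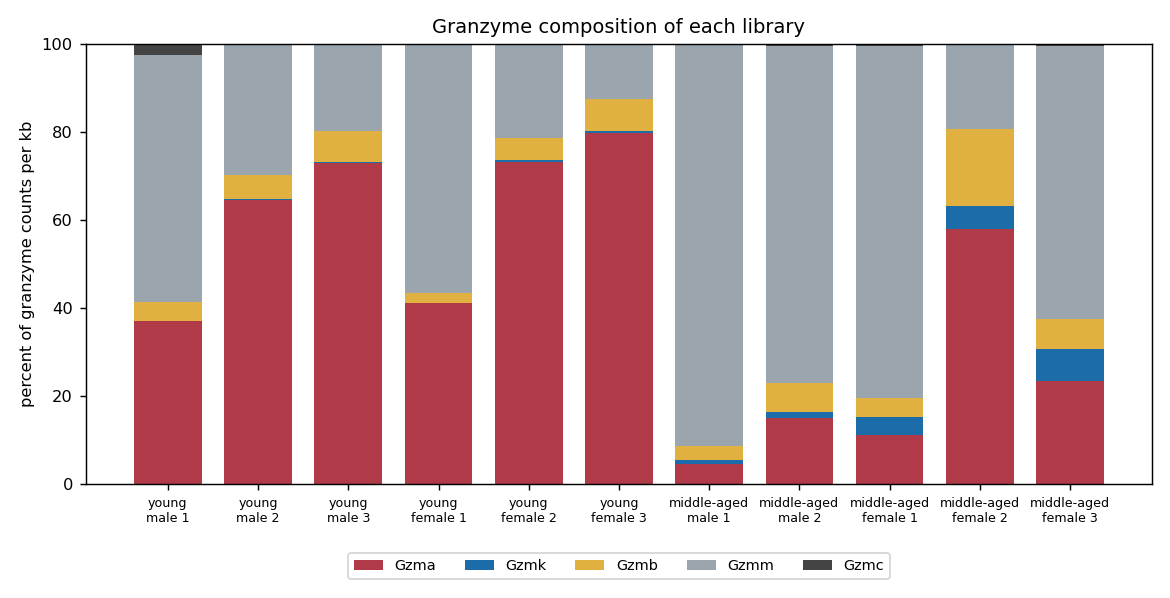
Share of each granzyme in the summed granzyme counts per kb of gene length (vertical axis, percent), for each library. Gzma takes 37.1 to 79.9% in the 6 young libraries and 4.66 to 23.5% in the middle-aged ones except middle-aged female 2 (58.1%), and Gzmm takes 62.2 to 91.1% in those 4 libraries.

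Gzmb (ENSMUSG00000015437, chr14:56258838-56262260), which encodes the granzyme most often used as a marker of armed cytotoxic cells, showed no difference between the ages that passed a test over all libraries. Its level was 21.4 to 61.0 CPM in young libraries, with a median of 38.1 CPM. In middle-aged males it was 22.2 and 21.9 CPM, and in middle-aged females 21.5, 143 and 18.1 CPM. Middle-aged female 2 lay above every other library. The other 4 middle-aged libraries lay close together, near or below the lowest young value (21.4 CPM, young female 1). The remaining young libraries were at 34.9 CPM or more. The log2 fold change was 0.0029 (SE 0.58, edgeR adjusted p = 1.00), with p = 0.682 by the exact permutation test.

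Without middle-aged female 2 the mean of Gzmb was 20.9 ± 1.90 CPM (SD, n = 4) against 39.1 ± 12.9 CPM (SD, n = 6) in young libraries. That left a log2 fold change of -0.90 (SE 0.31, edgeR adjusted p = 1.00), with p = 0.0333 by the exact permutation test. Within replicate numbers 1, 2 and 3 the log2 differences were -0.34, 0.57 and -1.46, and number 2 includes middle-aged female 2. Proteases of other cells that are encoded beside Gzmb were also highest in this library. Mcpt8, a basophil protease gene, was at 35.9 CPM there and at most 0.649 CPM elsewhere, and Ctsg, which encodes cathepsin G of neutrophils, at 14.96 and at most 0.177 CPM. Mcpt8 and Ctsg belong to 8 genes of basophils and granulocyte precursors, chosen after the values were seen, that summed to 435 CPM in middle-aged female 2 and to 0 to 8.01 CPM elsewhere. Their part in the Gzmb level was not tested.

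**Figure D4:**
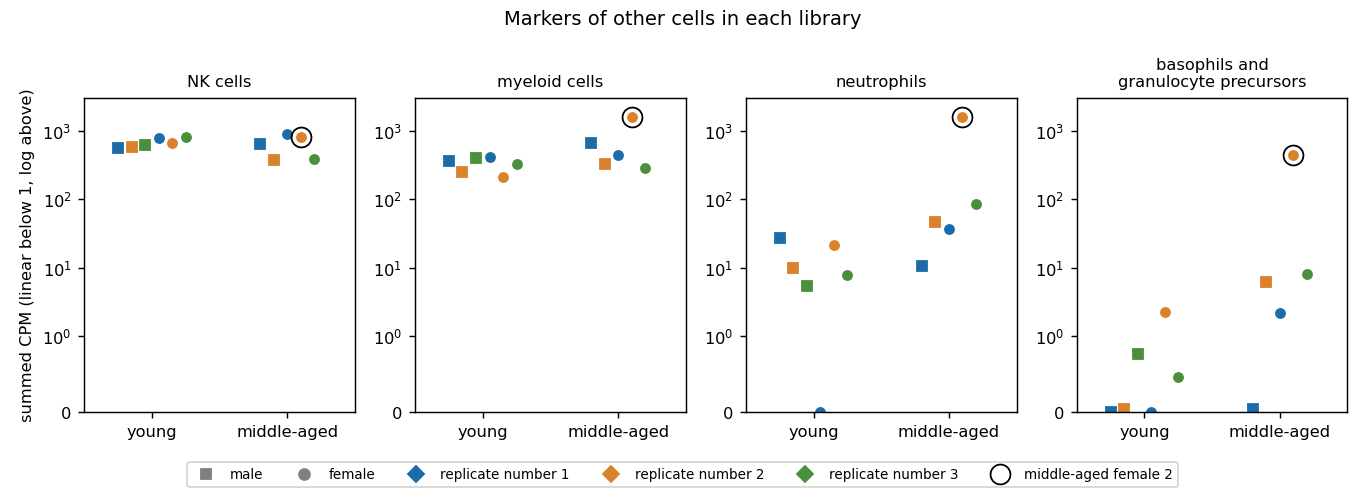
Summed level of marker genes of other cells in each library (vertical axes: CPM, linear below 1 and logarithmic above), by age, with the same symbols as the plot of levels by library. Middle-aged female 2, ringed, stands at 1572 CPM for myeloid, 1590 CPM for neutrophil and 435 CPM for basophil and precursor markers, and within the range of the other libraries for NK markers (809 CPM).

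Gzmm (ENSMUSG00000054206, chr10:79689020-79695261), which encodes a granzyme that cleaves after methionine or leucine, was highest in the libraries numbered 1 at either age. Its level was 399 to 673 CPM in libraries numbered 1, 161 to 260 CPM in those numbered 2 and 106 to 170 CPM in those numbered 3. Young libraries averaged 269 ± 190 CPM (SD, n = 6), and middle-aged libraries 332 ± 213 CPM (SD, n = 5). The fit by age gave a log2 fold change of 0.28 (SE 0.52, edgeR adjusted p = 1.00), with p = 0.515 by the exact permutation test. It was 0.45 (SE 0.55) without middle-aged female 2 and, without the 2 shallowest libraries, 1.12 (edgeR adjusted p = 0.650). Within numbers 1, 2 and 3 the age differences were 0.03, 0.15 and 0.59 on the log2 scale.

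Prf1 (ENSMUSG00000037202, chr10:61297833-61304680), the perforin gene, was at 117 to 328 CPM in young libraries, with a median of 278 CPM. It was at 229.7 and 305.6 CPM in middle-aged males and at 237, 319 and 315 CPM in middle-aged females. The groups overlapped, and libraries numbered 1 (117 to 237 CPM) lay below all others (268 to 328 CPM). By age, the log2 fold change was 0.14 (SE 0.27, edgeR adjusted p = 1.00), with p = 0.619 by the exact permutation test, and 0.08 (SE 0.30) without middle-aged female 2. Middle-aged female 2 was the highest of the middle-aged libraries, by little, and lay within the young range.

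Srgn (ENSMUSG00000020077, chr10:62493833-62527451) encodes serglycin, the proteoglycan that holds granzymes and perforin in the granule. Its level was 257 to 470 CPM in young and 258 to 389 CPM in middle-aged libraries, with a mean of 331 CPM in each group (SD 81.1, n = 6, and 51.9, n = 5). Its log2 fold change was 0.0035 (SE 0.22, edgeR adjusted p = 1.00), with p = 0.916 by the exact permutation test, and -0.01 (SE 0.25) without middle-aged female 2.

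Ctsw (ENSMUSG00000024910, chr19:5465240-5468498) encodes cathepsin W, a cysteine protease of cytotoxic cells. Its level was 637, 1175 and 1072 CPM in young males and 1032, 1131 and 1016 CPM in young females. It was 1293 and 1100 CPM in middle-aged males and 1243, 1184 and 1177 CPM in middle-aged females. Young male 1 was far below the rest, and the other young libraries overlapped with the middle-aged ones. In the edgeR fit the log2 fold change was 0.24 (SE 0.20, edgeR adjusted p = 1.00), whereas the exact permutation test gave p = 0.0346, unadjusted for the 9 genes tested in this way, and p = 0.0905 without middle-aged female 2 (log2 fold change 0.25, SE 0.23). Ctsw shares 9 exon bases with Fibp on the opposite strand, which had 184 to 1765 counts, and the strand setting of the counting is not given in the sources used here.

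Nkg7 (ENSMUSG00000004612, chr7:43437073-43438249), which encodes a membrane protein of cytotoxic granules, was the most abundant granule gene per kb in both ages. Its level was 1768 to 8730 CPM in young and 2202 to 6862 CPM in middle-aged libraries. The values were separated by replicate number, with 6259 to 8730 CPM for number 1, 2948 to 3444 CPM for number 2 and 1768 to 2202 CPM for number 3, whatever the age or sex. The log2 fold change by age was -0.0071 (SE 0.50, edgeR adjusted p = 1.00), with p = 0.771 by the exact permutation test. It was 0.06 (SE 0.55) without middle-aged female 2 and, without the 2 shallowest libraries, 0.85 (edgeR adjusted p = 0.776). Within numbers 1, 2 and 3 the age differences were -0.35, 0.08 and 0.31 on the log2 scale.

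Lamp1 (ENSMUSG00000031447, chr8:13159161-13175338) encodes a glycoprotein of the lysosomal and granule membrane that reaches the surface when granules are released. Its level was 114 and 118 CPM in the young libraries numbered 1, 249.6 to 318 CPM in the other young libraries and 267 to 337 CPM in middle-aged libraries. Over all libraries its log2 fold change was 0.43 (SE 0.30, edgeR adjusted p = 1.00), with p = 0.130 by the exact permutation test, and 0.40 (SE 0.33) without middle-aged female 2. Within number 1 the age difference was 1.47, and within numbers 2 and 3 it was -0.04 and 0.09 on the log2 scale. Lamp1 shares 249 exon bases with Grtp1 on the opposite strand, which had 1 to 65 counts. The part of sequencing depth or of whatever the numbers mark in these values was not tested. The interaction of age and sex had an edgeR adjusted p of 1.00 for each of the 9 granule genes.

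**Figure D5:**
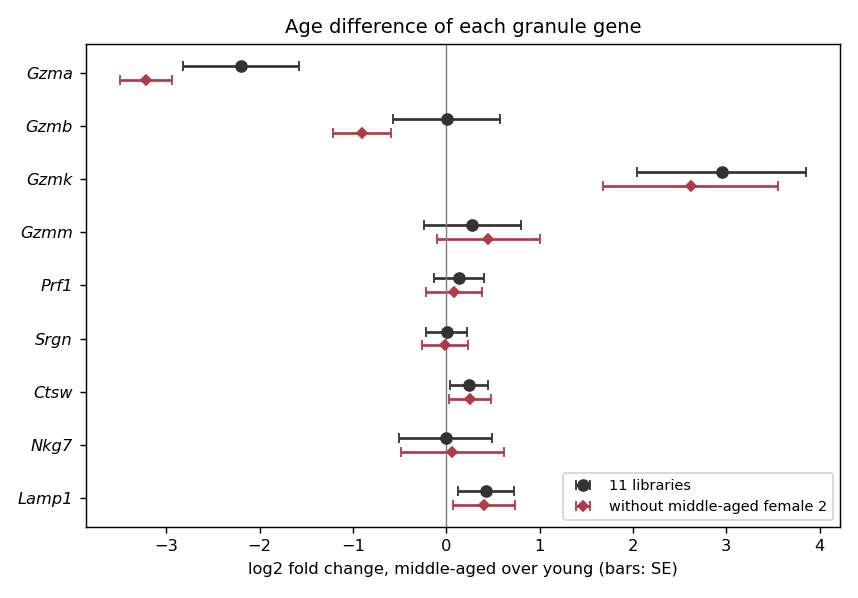
Log2 fold change of each granule gene, middle-aged over young (horizontal axis), with its standard error as bars, from the fit to 11 libraries (circles) and without middle-aged female 2 (diamonds). Gzma moves from -2.20 to -3.22 and Gzmb from 0.0029 to -0.90, whereas Gzmk stays on the other side (2.95 and 2.62) and the remaining 6 genes lie between -0.01 and 0.45 in both fits.

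Ranked by median level per kb, young libraries had Nkg7 first, then Ctsw, Gzma, Srgn, Gzmm, Prf1, Lamp1, Gzmb and Gzmk. The ranges over young libraries of Nkg7 (1934 to 9551 CPM per kb) and Ctsw (517 to 954) did not overlap, nor did those of Ctsw and Gzma (214 to 469). From Gzma down to Lamp1, neighbours in this order overlapped, Gzma and Srgn (117 to 214) only at the edge, and Gzmb (14.9 to 42.5) lay below Lamp1 and above Gzmk. In middle-aged libraries Nkg7 and Ctsw again led, followed by Gzmm, Srgn, Prf1, Lamp1, Gzma, Gzmb and Gzmk, so Gzma went from the third to the seventh place. There Nkg7 and Ctsw again lay apart from each other and from the rest, and all neighbours from Gzmm down to Gzmk overlapped. The overlaps of Gzma rested on middle-aged female 2. Without it Gzma was at 23.4 to 43.5 CPM per kb, wholly below Lamp1 (99.9 to 126) and wholly above Gzmb (12.6 to 15.5), and Prf1 and Lamp1 changed places. The median of Gzma was 295 CPM per kb in young and 37.5 CPM per kb in middle-aged libraries. Those of Gzmk were 1.35 and 13.2 CPM per kb, and Gzmk was last in both ages.

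Of 27 further genes of the granule pathway, 22 were tested. None had an unadjusted p under 0.05 in edgeR in either direction, and none had an adjusted p under 0.05. Their fold changes were positive for 14 and negative for 8, with a median of 0.08 on the log2 scale, and 0.07 without middle-aged female 2. The inhibitors and processing enzymes of granzymes had 2 positive and 4 negative fold changes of 6, the genes of granule docking and fusion 7 and 3 of 10, and those of the granule membrane and sorting 5 and 0 of 5.

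The smallest p-values in this list belonged to Cst7 and Stx11 among the positive and Ctsl and Serpinb9b among the negative fold changes. Cst7 encodes cystatin F, an inhibitor of the cathepsins that activate granzymes, with averages of 312 ± 78.1 CPM (SD, n = 6, young) and 446 ± 134 CPM (SD, n = 5, middle-aged) (log2 fold change 0.51, SE 0.25, edgeR adjusted p = 1.00). Stx11 encodes a syntaxin of granule fusion, with means of 6.81 ± 5.44 and 22.6 ± 15.9 CPM (log2 fold change 1.57, SE 0.80). Ctsl, the cathepsin L gene, had means of 16.4 ± 3.84 and 10.9 ± 2.46 CPM (-0.58, SE 0.30). Serpinb9b, a relative of the granzyme B inhibitor gene Serpinb9, had means of 4.92 ± 4.54 and 0.9499 ± 1.094 CPM (-2.51, SE 1.39). The log2 fold changes of these 4 genes without middle-aged female 2 were 0.60 (Cst7), 1.19 (Stx11), -0.71 (Ctsl) and -3.21 (Serpinb9b), and again none of the 22 genes had an unadjusted p under 0.05. Over all 11 libraries the young and middle-aged ranges of all 22 genes overlapped.

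The genes most like Gzma across the 11 libraries, by Pearson's r of log2 CPM among 8332 tested genes with a mean of at least 10 CPM, were Gm6637 (r = 0.97, Spearman's rho 0.95), Chn2 (0.95 and 0.85) and Cd9 (0.93 and 0.62). In middle-aged female 2 all 3 had, like Gzma, a level within 1 SD of the young mean. That library was among those used to choose them, so this likeness follows in part from the choice. For Cd9, a tetraspanin gene, it was 61.2 CPM there, with averages of 52.1 ± 12.6 CPM (SD, n = 6) for young and 22.1 ± 22.2 CPM (SD, n = 5) for middle-aged libraries. Those most like Gzmk were Ccnc (r = 0.97, rho 0.84), Jchain (0.95 and 0.87) and Cd38 (0.94 and 0.85). With 0 counts, Gzmk was at -3.18 log2 CPM in young male 1 and young female 1, against 0.94 or more elsewhere. These 2 values lie far from the rest and weigh heavily on Pearson's r. Jchain, which encodes the joining chain of immunoglobulins, was at 0 in the same 2 libraries and had its highest level, 159 CPM, in middle-aged female 2. Pearson's r without middle-aged female 2 was 0.92 to 0.97 for the 3 genes like Gzma and 0.94 to 0.96 for those like Gzmk. These likenesses are descriptions over libraries that share age groups, replicate numbers and depth.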

How the data were processed

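RNA was extracted from the sorted cells, and libraries were made with a SMARTer kit for low RNA input, per the labels. The authors deposited counts, whole numbers of reads per Ensembl gene without normalization, with GRCm38 coordinates and a gene length. Kallisto and mm10 are named in the submitters' processing notes without a role. The counting step, its strand setting and the test used are not given in the sources used here. A total of 0 sample columns were left unused.

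Counts were analysed in R 4.3.3 with edgeR 4.0.16 (TMM factors, filterByExpr on age group with a minimum count of 10 and a minimum total of 15, robust glmQLFit, glmQLFTest on age with sex as a term). Log2 CPM used a prior count of 2. Benjamini-Hochberg adjustment covered all genes tested. Single genes were also compared by exact 2-sided permutation tests on mean log2 CPM. Granzyme shares used counts per kb of the deposited gene length, and a count of 0 was replaced by 3 counts in ratios. The steps were tested on simulated counts of 13129 genes, 200 of them changed by 3 on the log2 scale. The counts were a single draw from edgeR's own dispersion estimates, with no effect of replicate number. Of these, edgeR recovered 74.5%, voom 70.0% and DESeq2 86.0%, with 3.25, 3.45 and 21.1% of calls false.

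The members, lists and alternatives were chosen with earlier results of these data known. All 9 members are named, together with the 2 listed pathway genes of smallest p in each direction and the 3 genes most like Gzma and Gzmk. Marker lists were summed in CPM. B cell markers (6 genes) summed to 109 to 322 CPM in young and 131 to 364 CPM in middle-aged libraries. The alternatives were other scaling factors, DESeq2 1.42.0, limma 3.58.1 (voom with quality weights), other filters, no sex term, replicate blocks, each sex alone, the fit without the 2 shallowest libraries, and each library left out. The sum of NK markers without Klre1 and the likeness without middle-aged female 2 were added after the values were seen.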

Additional observations from a re-analysis of the deposited data

Results flagged for a closer look

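Among the middle-aged libraries, the Gzma level of middle-aged female 2, 334.5 CPM, lay far from the other 4 (23.5 to 43.8 CPM), with a gap to the nearest of 0.935 of the group's range against Dixon's critical value of 0.71. The Gzmb level of the same library, 143.3 CPM, lay far from the other 4 (18.1 to 22.2 CPM), with a gap of 0.967 of the range. The summed myeloid, neutrophil, plasma cell and basophil markers were highest in this library, though not every marker of these lists was. Csf1r was highest in young male 3 and Sdc1 in middle-aged female 3. The part of such cells in either level was not tested. Among the young libraries, the Ctsw level of young male 1, 636.8 CPM, lay below the other 5 (1016 to 1175 CPM), with a gap of 0.704 of the range against a critical value of 0.625. That library had the fewest counts, whose part was not tested. Chance alone gives about 1 such value in 20 groups, and 22 groups were tested.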

How the results depend on the processing

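The number of genes with an adjusted p under 0.05, 3 in edgeR, was 112 with DESeq2, 138 with limma voom, 17 with no filter beyond 1 count, 5 with at least 10 counts in every library, 5 without the sex term, 0 in males alone, 0 in females alone and 6 without the 2 shallowest libraries, and from 1 to 4 when 1 library was left out (1 without young male 2, young female 2 or 3, or middle-aged female 1 or 3). With the replicate block shared by both sexes it was 19, and with the replicate block within sex 2. Same-numbered young and middle-aged libraries of a sex correlated at 0.0287 to 0.428 in their deviations from group means (4 of 5 pairs over 0.1). Of 11 libraries, 9 correlated best with one of the same number in another group. The deviations of the 2 middle-aged males mirror each other, so these counts are not independent. With the replicate block within sex, the log2 fold change of Gzma was -2.63 (adjusted p = 0.250) and that of Gzmk 3.78 (adjusted p = 0.582).

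The log2 fold change of Gzma kept its direction under 24 alternatives (-3.22 to -1.46, adjusted p 0.00201 to 1.00). It passed with DESeq2 (adjusted p = 0.0150), with voom (-2.84, adjusted p = 0.00485) and without middle-aged female 2, but with no other single library left out. Gzmk kept its direction under 23 (2.04 to 3.78, adjusted p 0.0295 to 1.00), passed with DESeq2 (adjusted p = 0.0295) and voom (adjusted p = 0.0353), and could not be fitted under the filter of 10 counts per library. In the data simulated from edgeR's own dispersion estimates 21.1% of the calls of DESeq2 were false, a rate that may not hold for the measured libraries. The Gzma to Gzmk log2 ratio moved by more than its SD only within replicate number 1 (-7.54) and number 2 (-4.03).

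Log2 fold changes near 0 changed sign. Gzmb was at -0.0033 with median-of-ratios factors, -0.0192 with upper-quartile factors, -0.0433 with library size alone, -0.0036 with DESeq2, -0.68 with voom, -0.00076 with at least 10 counts, -0.29 and -0.16 with the replicate block within sex and shared, -0.75 in males and -0.23 without the 2 shallow libraries. Srgn was at -0.0156, -0.0241, -0.00035 and -0.0154 with median-of-ratios, upper-quartile, library size and DESeq2, -0.0460 and -0.0530 with the replicate blocks, and -0.30 in females. Nkg7 was at 0.0299 with library size alone, 0.44 with voom, 0.0268 with no filter beyond 1 count, 0.0048 with at least 10 counts, 0.22 in males and 0.85 without the 2 shallow libraries. Prf1 was at -0.0318 with voom, -0.0526 in males and -0.12 without the 2 shallow libraries, and Gzmm at -0.16 in females, 0.83 in males, 0.74 with voom and 1.12 without the 2 shallow libraries. With 1 library left out the ranges were -0.90 to 0.18 for Gzmb, -0.0934 to 0.13 for Srgn, -0.29 to 0.46 for Nkg7, -0.0463 to 0.27 for Prf1 and -0.12 to 0.81 for Gzmm. The cause was not tested. Gzmk had 0 counts in the 2 shallow libraries, and the part of depth in this was not tested.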
